A study of Mus musculus with 11 samples.

Results

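The genes described are the subunits and dedicated assembly chaperones of the proteasome, taken as every symbol of the deposited bulk RNA-seq count table that starts with Psma, Psmb, Psmc, Psmd, Psme, Psmf or Psmg and continues with digits only. This gave 48 of 32469 symbols, 5 of them subunits of the immunoproteasome and its activator (Psmb8, Psmb9, Psmb10, Psme1 and Psme2) and 43 others. Another 7 Psm symbols, mostly pseudogenes, did not meet the rule. The cells were CD8+ PD-1+ Ly108+ TIM-3- CD62L- T cells, the gate used for precursor exhausted cells narrowed to those without CD62L. They were sorted from tumors of Lewis lung carcinoma, a mouse lung cancer cell line grown under the skin of C57BL/6 mice. The methods describe females of 8 weeks and name no genetic modification, and the source texts differ on the day of excision. In the anti-LAG-3 group (aLAG3 in the labels, 6 mice), clone C9B7W, an antibody against the inhibitory receptor LAG-3, was injected intraperitoneally at 200 µg on days 14 and 16 after inoculation. The untreated group had 5 mice, for which no control antibody is named, so the antibody and the injections cannot be told apart. Each mouse gave 1 library, and the libraries carry the numbers 1 to 5 (untreated) and 6 to 11 (anti-LAG-3).

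The proteasome degrades proteins marked with ubiquitin. Its 20S core is a barrel in which alpha subunits form the outer rings and beta subunits the inner rings, and the beta subunits Psmb5, Psmb6 and Psmb7 cut the substrate. In lymphocytes, and in other cells after interferon-gamma, Psmb8 (LMP7), Psmb9 (LMP2) and Psmb10 take the places of Psmb5, Psmb6 and Psmb7, which changes the peptides made for presentation on MHC class I. The 19S cap, with ATPases encoded by Psmc genes and non-ATPase subunits encoded by Psmd genes, binds and unfolds substrates, whereas Psme1 and Psme2 form the alternative PA28 activator.

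Psmb9 (chr17:34181987-34187764, minus strand) and Psmb8 (chr17:34197721-34201454, plus strand) lie in the MHC region, and Psme1 (chr14:55578123-55581529, plus strand) and Psme2 (chr14:55587441-55591113, minus strand) form a second pair of neighbours. These coordinates are those of GENCODE M21 on GRCm38. Promoter windows of 250 bases before to 50 bases after a start site were available for 40 of the 48 members in RefSeq on GRCm38.p6, and were searched on both strands for the core of the interferon-stimulated response element, spelled GAAA, any 2 bases and GAAA again, and for TTCNNNGAA, the interferon-gamma activated site. These motifs did not overlap each other in the windows printed here. The windows of the immune subunits that held a match, Psme1 and Psmb8, are shown with the match in capitals, followed by that of Psmb9, which held neither and shares 275 bases with the window of Tap1, a peptide transporter gene on the opposite strand.
Psme1, chr14:55578244-55578543, plus strand: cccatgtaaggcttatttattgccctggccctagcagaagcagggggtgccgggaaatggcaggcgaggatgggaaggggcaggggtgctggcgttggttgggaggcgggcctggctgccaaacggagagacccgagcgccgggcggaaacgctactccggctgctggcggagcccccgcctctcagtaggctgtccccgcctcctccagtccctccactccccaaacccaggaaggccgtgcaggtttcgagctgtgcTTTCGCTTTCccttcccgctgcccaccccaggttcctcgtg
Psmb8, chr17:34197945-34198244, plus strand: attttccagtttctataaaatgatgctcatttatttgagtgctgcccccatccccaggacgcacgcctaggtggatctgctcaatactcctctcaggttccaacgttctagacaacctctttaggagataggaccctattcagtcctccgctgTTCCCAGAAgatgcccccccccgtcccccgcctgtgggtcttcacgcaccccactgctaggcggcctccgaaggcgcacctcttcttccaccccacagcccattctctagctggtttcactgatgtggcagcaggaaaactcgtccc
Psmb9, chr17:34187281-34187580, minus strand: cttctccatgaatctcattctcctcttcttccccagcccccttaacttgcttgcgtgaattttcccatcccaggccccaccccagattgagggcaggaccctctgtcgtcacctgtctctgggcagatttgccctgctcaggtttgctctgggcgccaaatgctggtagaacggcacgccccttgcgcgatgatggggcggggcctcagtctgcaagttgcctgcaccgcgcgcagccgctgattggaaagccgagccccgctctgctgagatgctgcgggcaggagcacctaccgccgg
The first motif was found in windows of 5 members (Psmb3, Psmd4, Psmd9, Psme1 and Psmg4) and in 3.44% of all 32851 windows. The second was found in 3 members (Psmb8, Psmd2 and Psmg1) and in 8.30% of all windows. A match describes the letters of the window and does not show a binding site. The windows printed here lie inside the GENCODE spans of their genes, so the bases before those spans were not searched. A window without a match therefore does not show that a promoter lacks these motifs.

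Total counts were 317449 to 1271063 in the untreated and 313524 to 1901374 in the anti-LAG-3 libraries, so 3 counts, the floor used here, equal 1.58 to 9.57 counts per 1000000 counts (CPM). Levels below are CPM scaled by the trimmed mean of M values (TMM), and differences are log2 fold changes, anti-LAG-3 minus untreated. The 6 CD8 T cell markers summed to 5031 to 5296 CPM in untreated and 5088 to 5584 CPM in anti-LAG-3 libraries. Markers of other cells were much lower: 7 myeloid genes summed to 18.9 to 34.6 and 21.3 to 115 CPM, and 4 dendritic genes to 6.30 to 24.7 and 3.19 to 20.1 CPM. B cell, NK, tumor epithelial and fibroblast markers reached at most 12.6 CPM. The pair listed as endothelial, Pecam1 and Cdh5, summed to 137 to 200 and 147 to 214 CPM, and Pecam1 is also expressed by T cells. In bulk libraries a different mix of cells and a different amount of RNA per cell cannot be told apart, and the part of these markers in the results was not tested.

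The immune subunits other than Psmb10 were the 4 highest members per kilobase of median transcript length. By this scale (the median over a gene's coding transcripts), Psmb8 was the highest of the 48 members, with 1101 ± 71.2 CPM per kb in untreated (SD, n = 5) and 1203 ± 79.1 in anti-LAG-3 mice (SD, n = 6). Psme2 followed with 608 ± 36.2 and 625 ± 45.3, then Psmb9 with 524 ± 25.9 and 512 ± 75.0, and Psme1 with 508 ± 125 and 523 ± 94.4 CPM per kb. The values of Psmb9 and Psme1 lay within the SD of either. Psmb10 stood apart from the other 4 immune subunits at 154 ± 20.2 and 154 ± 16.97 CPM per kb, rank 18 of the members, below the constitutive catalytic subunits Psmb6 (282 ± 24.2 and 284 ± 23.0) and Psmb5 (222 ± 35.7 and 246 ± 32.1), and above Psmb7 (112 ± 18.9 and 121 ± 19.5). With the longest transcript of each gene instead, Psmb8, Psme2 and Psme1 ranked 1, 2 and 4, Psmb9 ranked 8 and Psmb10 ranked 14. Across 6829 tested genes, CPM did not grow with transcript length (Spearman's rho -0.21, across genes of the same libraries), so the order per kilobase rests on a division by length that the counts did not follow and is only approximate.

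The immune catalytic subunits accounted for 74.3% ± 1.42 of the summed catalytic RNA level per kilobase in untreated (SD, n = 5) and 74.2% ± 1.53 in anti-LAG-3 mice (SD, n = 6). By the longest transcripts the shares were 61.5% ± 1.72 and 61.4% ± 1.87. All 48 members together took 0.746% ± 0.0069 of the counts in untreated and 0.760% ± 0.035 in anti-LAG-3 libraries, and the 5 immune subunits took 28.7% ± 1.11 and 29.4% ± 1.17 of the members' counts. The ranges of the groups overlapped for each of these shares.

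**Figure D1:**
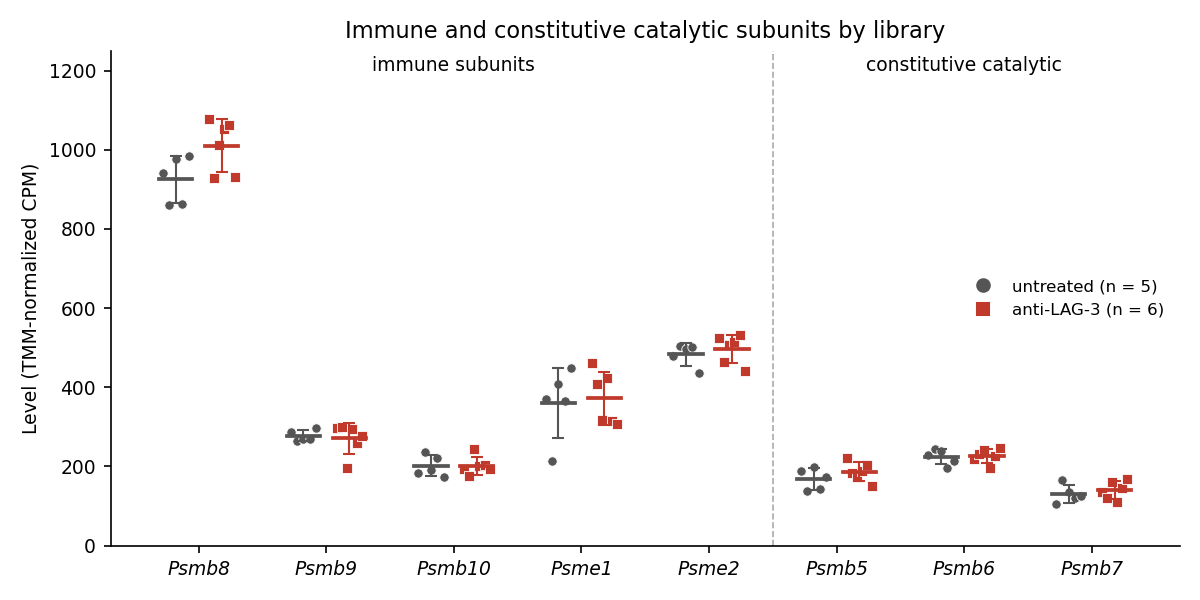
TMM-normalized CPM (y axis) of the 5 immune and 3 constitutive catalytic subunits in each library, as grey circles for untreated and red squares for anti-LAG-3 mice, with lines at the mean and bars of 1 SD. The groups overlap for all 8 genes, and the lowest untreated Psme1 value (214) and the lowest anti-LAG-3 Psmb9 value (196) lie apart from the rest.

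For none of the 8 catalytic and PA28 genes did the difference between the groups pass the test, and the groups overlapped for each. Psmb8, which carries the chymotrypsin-like site of the immunoproteasome, was at 942, 860.3, 976, 863 and 983 CPM in untreated libraries 1 to 5 and from 928 to 1077 CPM, with a median of 1032, in the anti-LAG-3 libraries. Of the immune subunits it had the largest difference, 0.12 (SE 0.067, 95% CI -0.018 to 0.26, unadjusted p = 0.085, adjusted p = 0.999 by edgeR's quasi-likelihood test). Psmb9, which takes the place of Psmb6, was at 287, 264, 271, 269 and 296 CPM in untreated libraries and from 196 to 299 CPM, median 286, after anti-LAG-3. Its low value of 196 came from library 8, and its log2 fold change was -0.015 (95% CI -0.22 to 0.19). Psmb10, which takes the place of Psmb7, was at 183, 237, 191, 220.3 and 174 CPM in untreated libraries and from 176 to 243 CPM, median 198, after anti-LAG-3, a difference of 0.013 (95% CI -0.21 to 0.23). Untreated library 2 and anti-LAG-3 library 8 were the highest for Psmb10 in their groups.

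Psme1, the alpha subunit of PA28, was the most variable immune subunit. It was at 369.5, 214, 408, 366 and 448 CPM in untreated libraries and from 308 to 461 CPM, median 362, after anti-LAG-3, a difference of 0.046 (95% CI -0.22 to 0.31). Without untreated library 2, the low one, the difference was -0.068. Psme2, the beta subunit of PA28, varied much less, with 478, 504, 497, 502 and 435 CPM in untreated libraries and 441 to 531 CPM, median 511, after anti-LAG-3, a difference of 0.042 (95% CI -0.12 to 0.20) that was 0.0075 without untreated library 5. The spread of libraries beyond counting error (biological coefficient of variation, BCV, from the fit) was 0.145 for Psme1, 0.080 for Psme2 and 0.078 for Psmb8. It holds amplification and other differences between libraries as well as those between mice. Of all tested genes, not matched by level, 96.9% had a higher BCV than Psmb8. Of the distinct 50-base stretches of Psme2 transcripts, 28.3% also occur in other genes, chiefly Psme2b, which had 401 counts over all libraries against 4081 for Psme2. How the authors counted reads that fit several genes is not given in the sources used here, and with both symbols summed the difference was 0.043.

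Among the constitutive catalytic subunits, Psmb5 (chymotrypsin-like) was at 189.7, 138, 199, 143 and 173 CPM in untreated libraries and from 151 to 222 CPM, median 187, after anti-LAG-3. Its difference of 0.12 (95% CI -0.12 to 0.35) became 0.083 when Gm3375, a near copy that shares 46.8% of its 50-base stretches, was added. Psmb6 (caspase-like) was at 229.9, 244, 239, 197 and 214 CPM and from 195 to 247 CPM, median 229, a difference of -0.0042 (95% CI -0.20 to 0.19). Psmb7 (trypsin-like) was at 106, 165, 134, 120.4 and 126 CPM and from 110.5 to 169 CPM, median 141, a difference of 0.099 (95% CI -0.17 to 0.37). Adjusted p was 0.999 for each of the immune and constitutive catalytic genes.

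For the RNA of exchanged catalytic subunits, a ratio can be taken within each mouse, which does not depend on the scaling of libraries. It does not measure which subunits are built into the core. The log2 ratio of the CPM of Psmb9 to Psmb6 was 0.30 ± 0.16 in untreated (SD, n = 5) and 0.24 ± 0.31 (SD, n = 6) after anti-LAG-3, which differed by -0.057 (two-sided exact permutation test, p = 0.766). In anti-LAG-3 library 8 this ratio was -0.29, the only value below 0. The ratio of Psmb10 to Psmb7 was 0.62 ± 0.18 and 0.53 ± 0.21, a difference of -0.097 (exact permutation p = 0.511). The ratio of Psmb8 to Psmb5 was 2.45 ± 0.15 and 2.42 ± 0.13, a difference of -0.024 (exact permutation p = 0.792). Adjusted over the 3 ratios by Benjamini-Hochberg, each p was 0.792, and the groups overlapped in each. Within the libraries of barcode 9 (the RNABC number of the labels, 3 against 3 mice, for which the smallest possible p is 0.1), the first and the second ratio had the opposite sign, 0.15 (exact permutation p = 0.3) and 0.051 (exact permutation p = 0.5). Over all members that were tested, the mean log2 CPM of the 5 immune subunits minus that of the 40 others was 1.82 ± 0.090 in untreated and 1.81 ± 0.095 after anti-LAG-3, which differed by -0.0068.

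**Figure D2:**
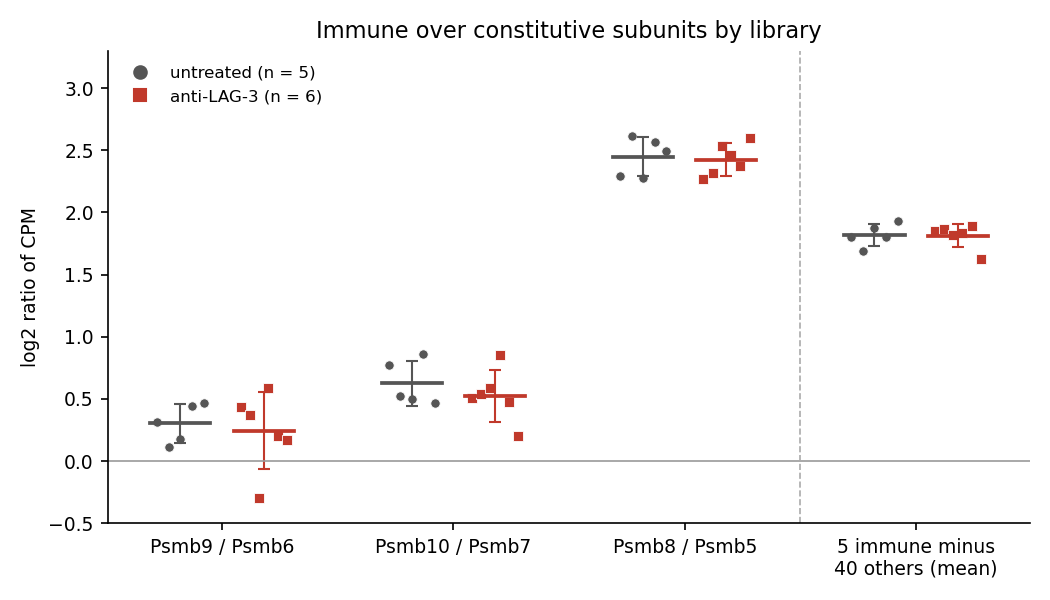
Log2 ratio of CPM (y axis) for each immune catalytic subunit over the constitutive subunit it replaces, and the mean log2 CPM of the 5 immune minus the 40 other tested members, per library, with lines at the mean and bars of 1 SD. Grey circles (untreated) and red squares (anti-LAG-3) overlap in all 4 columns, and the Psmb9 to Psmb6 ratio of anti-LAG-3 library 8 (-0.29) lies below 0.

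Of the 48 members, 45 passed the filter on low counts. No member had an adjusted p under 0.05 in the quasi-likelihood test of edgeR (0 of 45), nor did any of the 6949 genes tested (0%). The likelihood ratio test of edgeR and DESeq2 also gave 0 genes, with 307 and 163 genes at an unadjusted p under 0.05. At an unadjusted p under 0.05 the quasi-likelihood test gave 3 members (Psmg1, Psmd7 and Psmd11) and 259 genes, 3.73% of those tested. The groups did not overlap in CPM for 2 members (Psmg1 and Psmd11) and for 33 genes, 0.475% of those tested. Over the members, 29 log2 fold changes were above 0 and 16 below, with a median of 0.040, against 51.1% above 0 and a median of 0.0045 over all genes tested. The median was 0.042 over the 5 immune subunits and 0.035 over the 40 others. The 95% CI reached 0.14 to 0.26 to either side of the estimate for the immune subunits, with a median of 0.21, and by a median of 0.38 over all genes tested. These intervals are per gene and are not adjusted for the number of genes tested.

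**Figure D3:**
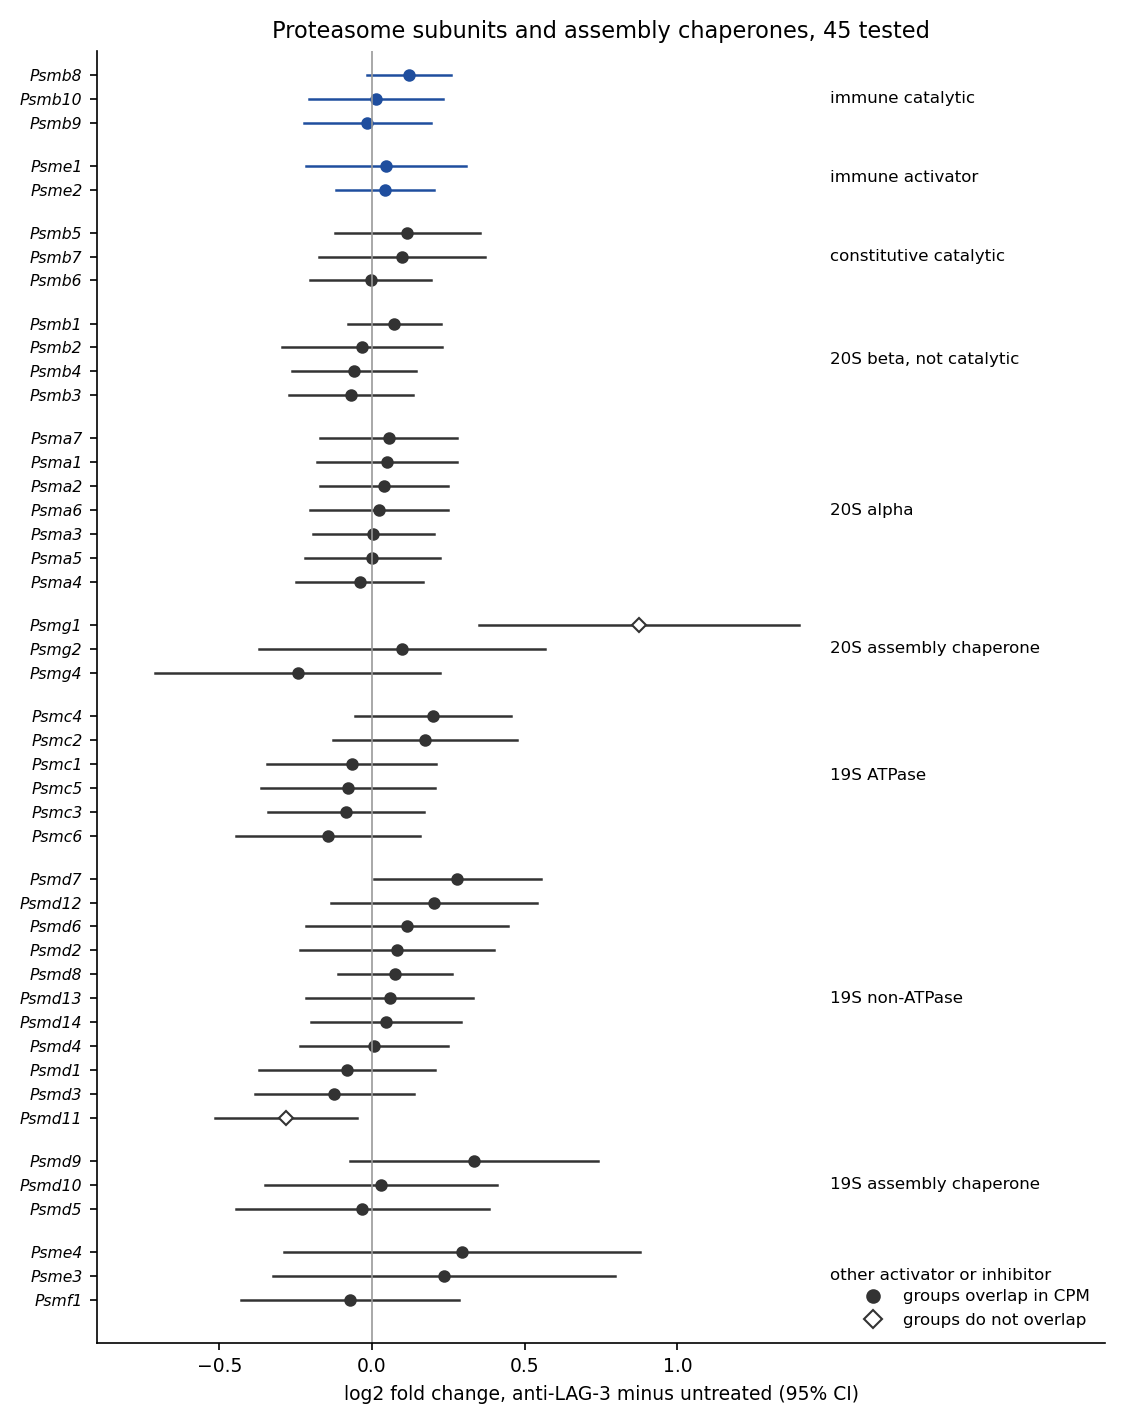
Log2 fold change, anti-LAG-3 minus untreated, with its 95% CI (x axis) for the 45 tested members, grouped by role, immune subunits in blue. Open diamonds mark Psmg1 (0.87) and Psmd11 (-0.28), the members whose groups do not overlap in CPM, and the intervals of 42 members include 0.

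The remaining subunits of the 20S core showed small differences. Of the 7 alpha subunits, which gate the entry to the barrel, 6 were above 0 and 1 below, all between -0.040 and 0.055, and levels ran from 123 CPM per kb for Psma2 to 308 for Psma3. Of the 50-base stretches of Psma5, 49.96% occur in other genes, so its level is uncertain. The 4 beta subunits without a catalytic site lay between -0.069 (Psmb3) and 0.073 (Psmb1), at 189.9 CPM per kb for Psmb2 to 349 for Psmb1. The tissue-restricted core subunits had few or no counts. Psma8, an alpha subunit of the testis, had 0 counts in all 11 libraries, which allows up to 0.342 CPM over all of them, and Psmb11, the beta subunit of the thymoproteasome in thymic cortical epithelium, had 0 to 8 counts per library.

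The assembly chaperones held the largest difference of the members. Psmg1 (chr16:95979933-95990960, minus strand), which with Psmg2 helps the alpha ring to form, was at 20.5, 26.4, 24.0, 28.2 and 5.63 CPM in untreated libraries and from 30.8 to 54.1 CPM, median 35.5, after anti-LAG-3. Every anti-LAG-3 value lay above every untreated value, and untreated library 5, with 3 counts, was the lowest. The log2 fold change was 0.87 (SE 0.25, 95% CI 0.35 to 1.40, unadjusted p = 0.00194, adjusted p = 0.999 by edgeR's quasi-likelihood test), from 3 to 56 counts per library. Without untreated library 5 it was 0.67 (unadjusted p = 0.00669), and within barcode 9 it was 1.00 (unadjusted p = 0.00475). Psmg1 shares no 50-base stretch with other genes of the annotation. Its partner Psmg2 had a log2 fold change of 0.098 (SE 0.23), and Psmg4, which acts with Psmg3 on the alpha ring, had -0.24 (95% CI -0.71 to 0.22) and overlapping values, 18.8 to 62.6 CPM in untreated and 23.6 to 39.7 CPM in anti-LAG-3 libraries. Its difference was -0.39 without untreated library 5, -0.12 without untreated library 2 and -0.097 with the barcode (the RNABC number of the labels) as covariate. Psmg3 did not pass the filter, with 1 to 30 counts per library. Pomp, which matures the core and is not a member by its symbol, had -0.091 (SE 0.12).

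The 6 ATPases of the 19S base lay between -0.14 (Psmc6) and 0.20 (Psmc4), 2 above 0 and 4 below, with levels from 48.2 CPM per kb for Psmc2 to 102 for Psmc3. Psmc6 was at 126, 158, 103, 105 and 97.5 CPM in untreated libraries and from 57.5 to 122 CPM, median 105, after anti-LAG-3, with the low value in library 10. Its difference was -0.066 without untreated library 2, -0.072 without anti-LAG-3 library 10 and -0.024 with the barcode as covariate.

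Of the 11 non-ATPase subunits of the 19S cap, 8 were above 0 and 3 below. Psmd11 (chr11:80428615-80473248, plus strand), a scaffold subunit of the lid, was at 134, 129, 133, 143 and 165 CPM in untreated libraries and from 98.1 to 123 CPM, median 116, after anti-LAG-3, so every untreated value lay above every anti-LAG-3 value. The difference was -0.28 (SE 0.11, 95% CI -0.52 to -0.049, unadjusted p = 0.0194, adjusted p = 0.999 by the same test). Without untreated library 5, the highest, it was -0.22 (unadjusted p = 0.0735), and within barcode 9 it was -0.25 (unadjusted p = 0.0768). Psmd7 (chr8:107580381-107588464, minus strand), the lid subunit that pairs with the deubiquitinase Psmd14, was at 73.1, 102, 81.0, 82.0 and 73.2 CPM in untreated libraries and from 80.2 to 108 CPM, median 98.3, after anti-LAG-3. Its groups overlapped and its difference was 0.28 (SE 0.13, 95% CI 0.0056 to 0.55, unadjusted p = 0.0458). The unadjusted p was above 0.05 with DESeq2 (0.0778), other size factors (0.0504) and no filter on low counts (0.0536), and without any of untreated libraries 1, 3, 4 and 5 or anti-LAG-3 libraries 6, 9 and 11 (0.0563 to 0.134). It was below 0.05 by edgeR's likelihood ratio test (0.0258). By the quasi-likelihood test it was below 0.05 with the barcode as covariate (difference 0.35, unadjusted p = 0.0174) and within barcode 9 (difference 0.40, unadjusted p = 0.0160). The same held without untreated library 2 or any of anti-LAG-3 libraries 7, 8 and 10 (0.0228 to 0.0439). Psmd14 itself had 0.046 (SE 0.12). Psmd1, the large scaffold of the base, was the lowest of the non-ATPase subunits at 25.3 CPM per kb, and Psmd11 was the highest at 176 CPM per kb by median transcript length but 44.2 by its longest transcript.

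**Figure D4:**
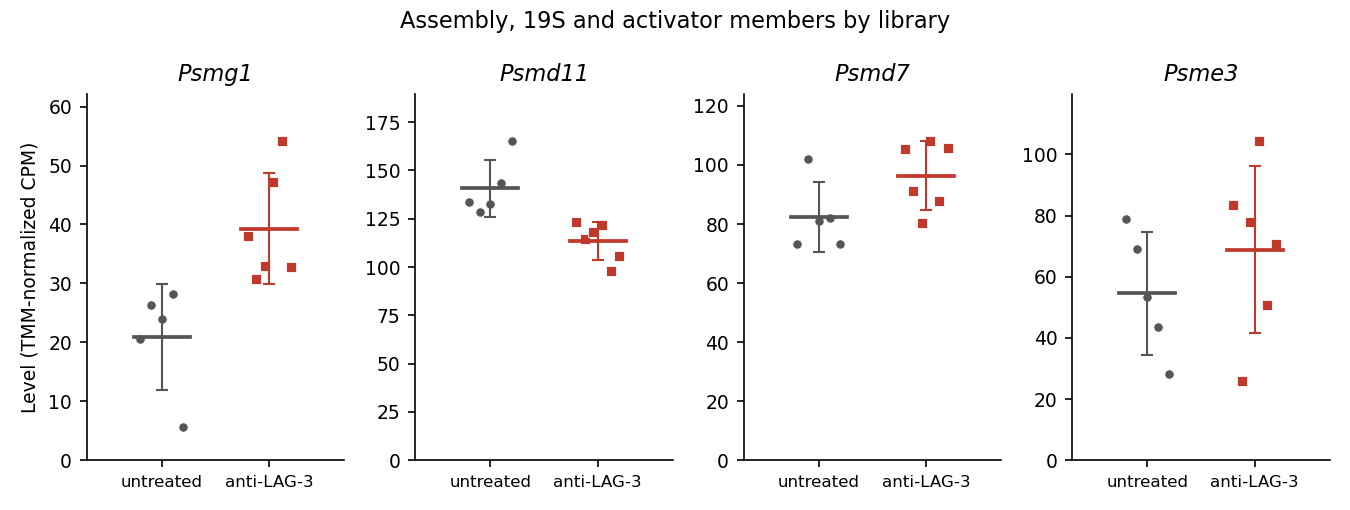
TMM-normalized CPM (y axes from 0) of Psmg1, Psmd11, Psmd7 and Psme3 in untreated (grey circles) and anti-LAG-3 libraries (red squares), with lines at the mean and bars of 1 SD. The groups do not overlap for Psmg1 and Psmd11, and overlap for Psmd7 and Psme3.

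Of the 3 chaperones of the 19S base, Psmd9 had the highest value, 0.34 (SE 0.20, 95% CI -0.071 to 0.74), with 52.6, 13.2, 35.6, 56.3 and 52.5 CPM in untreated libraries and 50.3 to 63.0 CPM, median 56.1, after anti-LAG-3. Its low values came from untreated libraries 2 and 3, the difference was 0.21 without untreated library 2 and 0.18 with the barcode as covariate, and 24.9% of its 50-base stretches occur in other genes. Psmd10 and Psmd5 had 0.029 and -0.033.

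Psme3 and Psme4, the other activators, had the highest BCV of the tested members, 0.271 and 0.206. Psme3, the nuclear PA28 gamma activator, was at 78.8, 69.2, 53.4, 43.5 and 28.1 CPM in untreated libraries and from 25.8 to 104 CPM, median 74.2, after anti-LAG-3. Its difference was 0.24 (SE 0.27, 95% CI -0.32 to 0.79), and 0.842% of the tested genes had a higher BCV. Single libraries moved this difference, to 0.033 without anti-LAG-3 library 9, 0.13 without library 6, 0.51 without library 7 (unadjusted p = 0.0163), 0.088 without untreated library 5 and 0.49 without untreated library 1. By the ExT number of the library in the labels, Psme3 was at 25.8 to 43.5 CPM in the 3 libraries of the lowest numbers, ExT18081 and ExT18082 (2 untreated), at 50.7 to 69.2 CPM in the 3 of ExT18083 (2 untreated) and at 70.6 to 104 CPM in the 5 of ExT18084 to ExT18088 (1 untreated). These groups of numbers were drawn after the data were seen, at the gaps between the values, and no share over other genes was computed. From ExT18084 to ExT18088 the values did not follow the number, at 78.8, 77.9, 104, 83.5 and 70.6 CPM. The labels do not say what these numbers stand for, they run in part with treatment, and their part in the result was not tested. Psme4, the PA200 activator, was at 13.2 to 24.4 CPM in untreated and 13.7 to 42.5 CPM in anti-LAG-3 libraries, a difference of 0.30 (95% CI -0.29 to 0.88). It was 0.13 without anti-LAG-3 library 8, 0.52 without library 7 and 0.12 with the barcode as covariate. Psmf1, the inhibitor PI31, had -0.072 (SE 0.17).

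Correlations among the immune subunits from mouse to mouse had mixed signs over the 11 mice and mostly positive signs within barcode 9. Of the 10 pairs among them, 4 had a positive and 6 a negative Pearson correlation over the 11 mice, from -0.77 to 0.55. Within the 6 libraries of barcode 9 only Psmb9 with Psmb10 (-0.25) and Psmb9 with Psme2 (-0.16) were negative. All other pairs were positive there, from 0.11 (Psme1 and Psme2) to 0.92 (Psmb10 and Psme2), without a test. In a fit with treatment, Psme1, Psmb9 and Psmb8 were higher in barcode 9 than in barcode 8, by log2 differences of 0.36, 0.22 and 0.068. Psmb10 and Psme2 were lower, by -0.20 and -0.013. The part of the barcode in the signs over the 11 mice was not tested. The pair Psmb9 and Psmb10 had r = -0.77 (permutation p = 0.00114, adjusted over the 10 pairs p = 0.0114) and rho = -0.81 (permutation p = 0.00389, adjusted p = 0.0313). Without libraries 7 and 8, the farthest from the median of Psmb9, r was -0.65 (permutation p = 0.0605), and within the 6 libraries of barcode 9 it was -0.25, a smaller value for which no test was run. Psmb9 and Psme1 had rho = 0.78 (permutation p = 0.00627, adjusted p = 0.0313) but r = 0.48 (permutation p = 0.119, adjusted p = 0.248), and r = 0.74 without libraries 7 and 8 and 0.45 within barcode 9. Psmb9 and Tap1, whose windows overlap, had r = 0.40 (permutation p = 0.234) and rho = -0.11 (permutation p = 0.754), a pair added after the data were seen. Without libraries 7 and 8 its r was -0.49, and within barcode 9 it was -0.70. The permutations for all these pairs exchanged libraries across barcodes, so their p do not take the barcode into account.

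The labels give each library an RNABC number, called its barcode here, without saying what it stands for. It was 9 for 6 libraries (3 untreated), 8 for 4 (1 untreated) and 10 for untreated library 2. Psme1 was at 369.5 to 461 CPM in the barcode 9 libraries, 308 to 366 in those of barcode 8 and 214 in the only library of barcode 10. The share of all tested genes whose values separate by barcode in this way was not computed. With treatment in the same fit, a contrast added after the data were seen, Psme1 was higher in barcode 9 than in barcode 8 by 0.36 (SE 0.095, unadjusted p = 0.000977, adjusted p = 0.148 by edgeR's quasi-likelihood test). The same contrast gave 0.22 for Psmb9 (unadjusted p = 0.0480), -0.20 for Psmb10 (unadjusted p = 0.0711), 0.25 for Psmb5 and -0.26 for Psmb7. It gave 0 of 45 members an adjusted p under 0.05, against 26 of 6949 genes (0.374%), and 5 members an unadjusted p under 0.05, against 557 genes (8.02%). Total counts were 566144 to 1901374 with barcode 9 and 313524 to 451465 with barcode 8, so barcode and depth cannot be told apart. With the barcode as a covariate, the treatment difference was 0.0023 for Psme1 and 0.11 for Psmb8, and within barcode 9 it was 0.082 and 0.071.

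**Figure D5:**
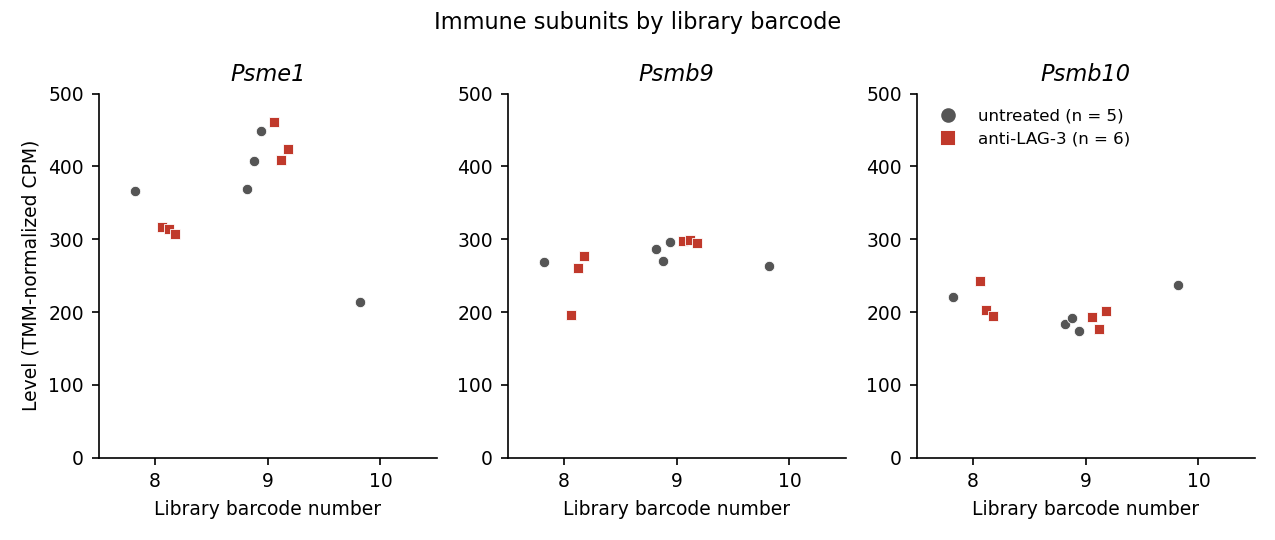
TMM-normalized CPM (y axes) of Psme1, Psmb9 and Psmb10 by the barcode number of the library (x axes), untreated as grey circles and anti-LAG-3 as red squares. Psme1 is highest in the 6 libraries of barcode 9 (369.5 to 461 CPM) and lowest in the library of barcode 10 (214 CPM), and both treatment groups are found within barcodes 8 and 9.

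Genes around the proteasome were read from lists. Of 26 listed genes of ubiquitin supply, shuttling and proteasome regulation, 21 were tested, 12 above 0 and 9 below, 0 with an adjusted p and 2 with an unadjusted p under 0.05 (3.73% over all genes tested). These were Ubb, a polyubiquitin gene, with 0.16 (SE 0.059, unadjusted p = 0.0109), and Ngly1, the glycanase that processes the proteasome gene activator Nfe2l1, with 0.36 (SE 0.15, unadjusted p = 0.0200) and 45.0 to 53.4 CPM in untreated against 57.5 to 73.1 CPM in anti-LAG-3 libraries, which did not overlap, as for 0.475% of all genes tested. Of 10 genes of the interferon-gamma and antigen processing pathway, 9 were tested, 2 above 0 and 7 below, and 0 had an adjusted or an unadjusted p under 0.05. Irf1, a transcription factor that induces immunoproteasome genes, had -0.036 (95% CI -0.30 to 0.22), and Tap1 had -0.13 (95% CI -0.33 to 0.069).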

How the data were processed

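Bulk RNA-seq of sorted T cells from 11 mice (5 untreated, 6 anti-LAG-3) was used. The libraries were made by reverse transcription on beads, template switching and PCR, without molecular identifiers, so counting errors do not cover amplification. The authors trimmed reads with Cutadapt, mapped them to GRCm38 reference RNA with Bowtie2 and deposited raw read counts per gene symbol. The submitters' processing notes name cutadapt 4.1 and Bowtie2 2.4.5, and the methods name other versions. The handling of strand and of reads that fit several genes is not given in the sources used here, so overlapping genes (Psmb9 with Tap1, Psmb8 and Psmb10 with antisense genes, Psme1 with Emc9) cannot be separated.

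Counts were filtered with filterByExpr (17.7 CPM or more in at least 5 libraries), scaled by TMM and tested over all genes with the quasi-likelihood test of edgeR 4.0.16 (R 4.3.3) with Benjamini-Hochberg adjustment at 0.05. Log2 CPM used a prior count of 2. Alternatives were edgeR's likelihood ratio test, DESeq2 1.42.0, other size factors, no filter, the barcode as covariate, only barcode 9, another prior count and leaving out each library. Ratios were compared by exact permutation and correlations by 100000 permutations in SciPy 1.17.1. Scripts were tested on simulated data. Library numbers are not shared between the groups, and no label pairs the mice. Some RNABC and ExT numbers of the labels occur in both groups, and no fit used the ExT number. Transcript lengths, coordinates and shared 50-base stretches come from GENCODE M21, another release than the authors used, in which 96.3% of the symbols were found.

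The members and gene lists were chosen with earlier results of these data known. Values are given for the immune and constitutive catalytic subunits, Psme3, members with an unadjusted p under 0.05 or groups without overlap, the 3 highest and 3 lowest log2 fold changes, members that failed the filter, the highest and lowest level of each role, and from the other lists genes with an unadjusted p under 0.05 with Pomp, Irf1 and Tap1. Some listed genes are not reported by name. Markers were summed as CPM of the total counts.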

Additional observations from a re-analysis of the deposited data

Results flagged for a closer look

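Of 40 sets of values (16 members, 3 ratios and the immune minus constitutive level in each group), 5 had a library far from the others of its group by Dixon's criterion. For separate sets not chosen by their values, about 1 in 20, or 2, would be flagged. Some of the 16 members were chosen by their fold change or p, and the ratios and the level reuse values of members. The 5 flagged sets therefore cannot be set against that rate. On the log2 CPM scale, Psmb9 was at 7.63 in anti-LAG-3 library 8 and at 8.04 to 8.24 in the other 5. Psme1 was at 7.76 in untreated library 2, the only library of barcode 10, and at 8.53 to 8.82 in the other 4. Psmg1 was at 3.05 in untreated library 5, from 3 counts, and at 4.53 to 4.94 in the other 4. Psmc6 was at 5.91 in anti-LAG-3 library 10, the library with the lowest total count, and at 6.67 to 6.97 in the other 5. The immune minus constitutive level was 1.63 in anti-LAG-3 library 11 and 1.82 to 1.89 in the other 5. The cause of these values was not tested.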

How the results depend on the processing

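No paired analysis was run because no label pairs the mice of the groups. No member had an adjusted p under 0.05 under any alternative. Of all genes, 3 had one without the filter on low counts and 2 without anti-LAG-3 library 7. The number of members with an unadjusted p under 0.05 was 1 (without untreated library 5) to 4 (without anti-LAG-3 library 7) when a library was left out, where 261 of 7552 and 339 of 6389 genes had one, 2 with DESeq2 and 3 with the likelihood ratio test. Of the other pathway genes, 1 had an unadjusted p under 0.05 with DESeq2 and 3 with the likelihood ratio test, where 163 and 307 of all 6949 genes had one. Differences changed sign with the barcode as covariate for Psmb9 (0.013) and Psmb6 (0.0063), without the filter for Psmb6 (0.0059), and within barcode 9 for Psmb9 (0.065), Psme4 (-0.065), Psmg4 (0.11), Psmc6 (0.021) and the ratios Psmb9 to Psmb6 (0.15) and Psmb10 to Psmb7 (0.051). Leaving out each library in turn gave -0.053 to 0.051 for Psmb9, -0.043 to 0.059 for Psmb10, -0.068 to 0.12 for Psme1, -0.040 to 0.037 for Psmb6, 0.047 to 0.18 for Psmb5, 0.016 to 0.16 for Psmb7, 0.033 to 0.51 for Psme3, 0.21 to 0.46 for Psmd9, -0.39 to -0.12 for Psmg4, 0.13 to 0.52 for Psme4, 0.0075 to 0.063 for Psme2, -0.21 to -0.066 for Psmc6, and, for the ratios, -0.13 to 0.051 (Psmb9 to Psmb6), -0.16 to -0.032 (Psmb10 to Psmb7) and -0.067 to 0.017 (Psmb8 to Psmb5). The immune minus constitutive difference ran from -0.040 to 0.031 in this way, and was -0.060 over the catalytic subunits and 0.028 by medians over members, which changes its sign. Psmg1 lay between 0.67 and 0.97 with a library left out and Psmd11 between -0.32 and -0.22. The cause of these changes was not tested. With totals as low as 313524, genes of few counts such as Psmg1 are measured imprecisely.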

Other observations

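Psme3 varied 4.04-fold between libraries, from 25.8 CPM in anti-LAG-3 library 7 (47 counts) and 28.1 CPM in untreated library 5 (15 counts) to 104 CPM in anti-LAG-3 library 9 (84 counts). Library 7 had the highest total count of all, 1901374. Among the symbols next to the members by name, Psma5-ps and Psme2b had counts in all 11 libraries, 13 to 112 and 13 to 75 per library, and Psmb6-ps, Psmb6-ps2 and Psmb7-ps2 had 0 in all of them.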
